A study of Mus musculus with 8 samples.

Results

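The ATF4 and CHOP stress genes are 10 genes that rise in many cells when protein synthesis is held back under stress. They were Atf4, Ddit3 (which encodes CHOP), Atf3, Atf5, Trib3, Ppp1r15a, Asns, Chac1, Sesn2 and Ddit4. They were listed by name as genes of this response, with no threshold on a measured value but with earlier results of these data known, and are 10 of the 17097 genes measured on 8 Affymetrix arrays of isolated mouse pancreatic islets. All 10 were represented, by 12 probe sets. Atf4 and Sesn2 had 2 probe sets each and the other genes 1, and of 2 probe sets the brighter one on average stands for the gene.

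The arrays fell into 4 groups of 2. The first group was islets of hIAPP transgenic mice given 4-phenylbutyrate (PBA), and the second was islets of untreated hIAPP mice. The other groups were islets of wild-type mice given PBA and islets of untreated wild-type mice. The hIAPP mice carry human islet amyloid polypeptide, a peptide that forms the amyloid deposits of islets in type 2 diabetes, and PBA is a chemical chaperone that is used to ease protein misfolding. PBA was dissolved in water at 1 g/kg/day for 12 weeks, starting at the age of 8 weeks, so islets came from mice of 20 weeks. Every array, wild type included, bears the strain name FVB/N-Tg(Ins2-IAPP)RFHSoel/J, in which the transgene is named for the Ins2 promoter, which is active in beta cells. Whether the paired arrays of a group hold RNA of separate mice or of pooled mice is not given, so p-values measure only the spread between arrays, which may be technical.

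The pathway is the integrated stress response. Kinases that sense misfolded protein in the endoplasmic reticulum (PERK), missing amino acids (GCN2), double-stranded RNA (PKR) or lack of haem and oxidative stress (HRI) phosphorylate the translation factor eIF2alpha. General protein synthesis then slows while the Atf4 mRNA is translated better, and the ATF4 protein switches on genes for amino acid supply and for further transcription factors, CHOP among them. Because ATF4 is controlled largely by translation, its mRNA on an array is not a measure of the protein. In beta cells, which make very large amounts of secreted protein, loss of PERK and prolonged activity of CHOP have both been linked to cell death in mouse models of diabetes.

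ATF4 binds, with a C/EBP partner, to a composite element with the letters TGATGNAA. The windows shown are those of the 4 genes that hold these letters on either strand, and that of Ddit4, which holds none of the letters searched and was the gene of the 10 called in the most comparisons, 3. Each runs 250 bases before to 50 bases after the annotated gene start, 5′ to 3′ on the gene's own strand, from RefSeq on GRCm38.p6. Capitals mark the match.
Chac1, chr2:119350992-119351291, plus strand: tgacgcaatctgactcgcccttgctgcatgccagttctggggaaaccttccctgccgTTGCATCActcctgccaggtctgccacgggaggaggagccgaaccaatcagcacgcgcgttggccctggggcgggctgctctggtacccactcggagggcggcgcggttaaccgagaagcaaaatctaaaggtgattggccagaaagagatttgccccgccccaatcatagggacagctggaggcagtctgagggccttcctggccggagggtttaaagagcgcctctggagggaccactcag
Atf3, chr1:191183284-191183583, minus strand: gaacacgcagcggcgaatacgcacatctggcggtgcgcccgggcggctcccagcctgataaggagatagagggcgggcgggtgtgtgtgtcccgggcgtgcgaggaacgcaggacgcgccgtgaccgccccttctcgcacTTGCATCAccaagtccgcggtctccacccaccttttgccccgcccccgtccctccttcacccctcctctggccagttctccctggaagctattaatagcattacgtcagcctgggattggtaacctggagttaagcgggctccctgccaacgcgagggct
Asns, chr6:7693160-7693459, minus strand: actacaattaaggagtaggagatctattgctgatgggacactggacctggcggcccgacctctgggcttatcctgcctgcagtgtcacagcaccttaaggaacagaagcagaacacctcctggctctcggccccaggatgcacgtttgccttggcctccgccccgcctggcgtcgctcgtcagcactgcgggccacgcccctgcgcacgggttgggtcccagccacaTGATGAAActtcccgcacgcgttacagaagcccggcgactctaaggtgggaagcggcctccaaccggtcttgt
Trib3, chr2:152344011-152344310, minus strand: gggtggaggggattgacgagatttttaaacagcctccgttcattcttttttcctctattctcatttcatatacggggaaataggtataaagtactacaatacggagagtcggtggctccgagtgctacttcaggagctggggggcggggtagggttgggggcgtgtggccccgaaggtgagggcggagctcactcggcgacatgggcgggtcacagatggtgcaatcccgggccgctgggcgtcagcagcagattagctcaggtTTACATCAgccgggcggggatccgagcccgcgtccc
Ddit4, chr10:59951721-59952020, minus strand: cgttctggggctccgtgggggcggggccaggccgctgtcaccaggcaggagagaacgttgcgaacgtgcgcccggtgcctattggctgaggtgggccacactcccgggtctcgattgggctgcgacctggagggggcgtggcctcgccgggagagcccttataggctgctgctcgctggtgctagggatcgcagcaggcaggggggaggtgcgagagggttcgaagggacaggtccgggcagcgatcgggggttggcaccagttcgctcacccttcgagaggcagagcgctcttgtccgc

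In Chac1 and in Atf3 the match was TTGCATCA, the element read on the opposite strand. It lay 193 to 186 bases before the start of Chac1 and 110 to 103 bases before the start of Atf3. Asns held TGATGAAA 23 to 16 bases before its start, and Trib3 held TTACATCA 14 to 21 bases after its start. Of all 32851 mouse promoter windows of this length, 3.97% held the composite letters. The letters of the cyclic AMP response element, TGACGTCA, were in 1.79% of all windows and, among the 10 genes, in Ppp1r15a, 12 to 5 bases before its start. The ER stress element (CCAAT and CCACG with 9 bases between them) was in 0.119% of all windows and in none of the 11 windows of the 10 genes, of which Atf5 has 2. Both strands were searched and no window of the 10 genes held more than 1 of the 3 motifs. A match describes these letters only.

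Values are log2 expression as deposited, made with RMA, and a difference of 1 is a doubling of signal. Background was read from 23 non-specific control probe sets, with a median of 3.1, and their 95th percentile of 4.68 is called the background limit here. Islet hormones were high on all arrays: Ins2 lay between 14.0 and 14.1, Gcg between 12.9 and 13.1, Sst between 12.5 and 13.0 and Ppy between 13.3 and 13.6. Ins2 was at the top of the measured scale, and other beta-cell markers, given with the cell type lists, did differ between groups. The correlation of 2 arrays of a group was 0.993 to 0.994, and that of arrays of different groups 0.972 to 0.994. The median over all genes was 5.90 on both untreated hIAPP arrays and 5.70 on the other 6, so setting all medians equal lowers each value of untreated hIAPP islets by 0.20. Differences were tested with limma in 1 model of all 8 arrays, with Benjamini-Hochberg adjustment over all 17097 genes and a threshold of 0.05.

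**Figure D1:**
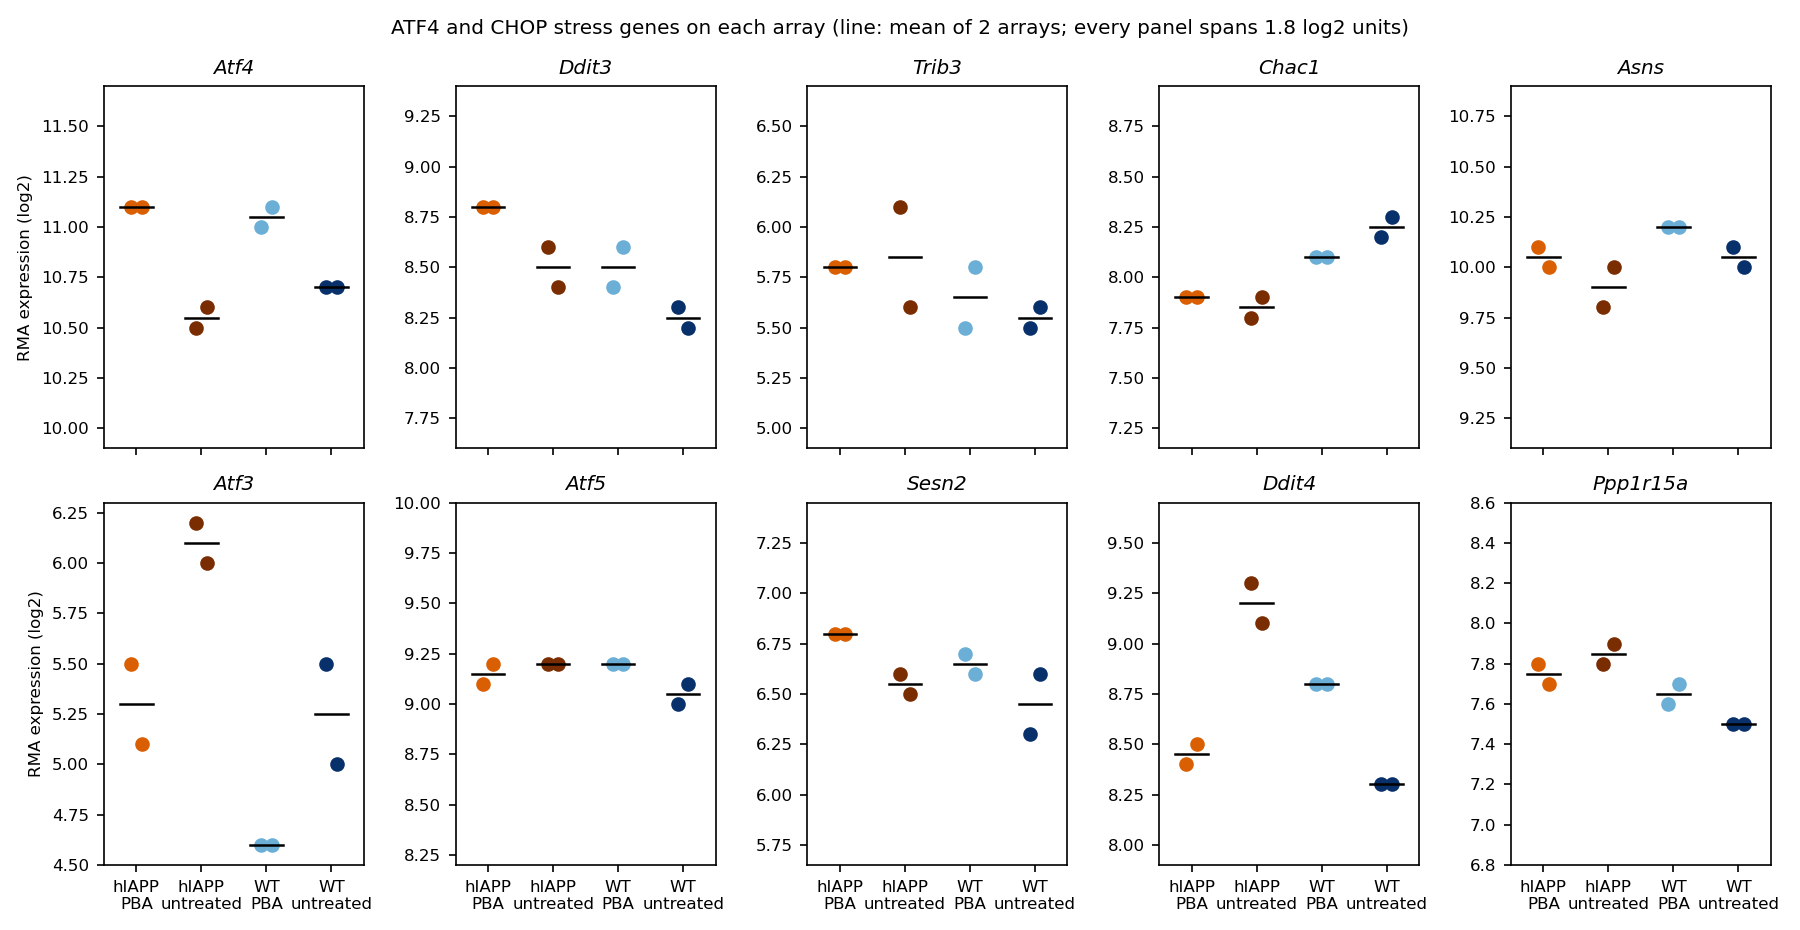
Expression of each of the 10 genes on every array, on the log2 scale of the deposited values (vertical axis, which spans 1.8 units in each panel), for PBA-treated hIAPP, untreated hIAPP, PBA-treated wild-type and untreated wild-type (WT) islets. Points are arrays and lines are means of 2. Ddit4 and Atf3 were highest in untreated hIAPP islets, Atf4 was lowest there, and Atf5 lay between 9.0 and 9.2 on all 8 arrays.

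Without PBA, 3 of the 10 genes differed between hIAPP and wild-type islets. Ddit4, an inhibitor of the growth kinase mTORC1, was 1.87-fold higher in hIAPP islets, and Atf3, a transcription factor of acute stress, was 1.8-fold higher. Chac1, an enzyme that breaks down glutathione, was lower, at 0.758-fold. Atf4 and Ddit3, which give the pathway its name, did not pass the test. Among all genes 7.77% were called higher and 3.19% lower in this comparison, and 2 and 1 of the 10 genes were. The median difference of the 10 genes was 0.20, against −0.05 over all genes.

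With PBA, hIAPP islets had 1.46-fold more Atf4 mRNA than without it and 0.595-fold as much Ddit4 mRNA. The background was 1.78% of all genes called higher and 6.32% called lower, and 1 of the 10 genes was called in each direction. In wild-type islets PBA changed none of the 10 genes past the threshold, which 0.292% of all genes passed. Ddit4 was the 1 gene of the 10 in which the PBA effect differed between hIAPP and wild-type islets. In that test of the difference, 0.269% of all genes were called higher and 1.69% lower.

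**Figure D2:**
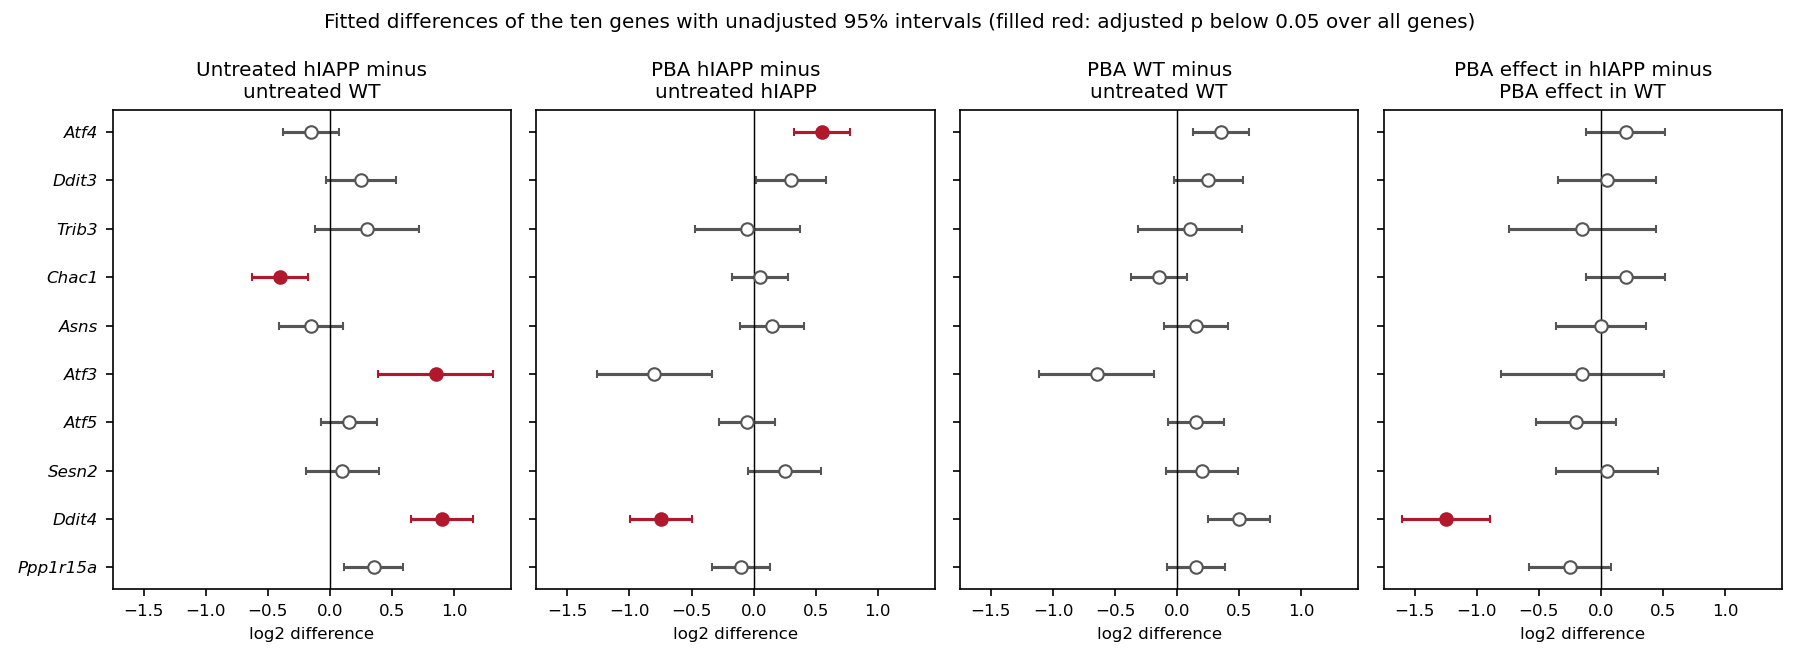
Fitted log2 differences of the 10 genes (points) with unadjusted 95% intervals (bars) for untreated hIAPP minus untreated wild type, PBA-treated minus untreated hIAPP, PBA-treated minus untreated wild type, and the PBA effect in hIAPP minus that in wild-type islets. Filled red points passed the threshold over all genes. Ddit4 is filled at 0.90, −0.75 and −1.25, Atf4 at 0.55, Atf3 at 0.85 and Chac1 at −0.40.

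Among the transcription factors, Atf4 encodes the main effector of the response. Its levels were 11.1 and 11.1 in PBA-treated hIAPP islets, 10.5 and 10.6 in untreated hIAPP islets, 11.0 and 11.1 in PBA-treated wild-type islets, and 10.7 and 10.7 in untreated wild-type islets. Both PBA-treated groups lay above both untreated groups with no overlap. The PBA difference was 0.55 (SE 0.10, adjusted p = 0.0154) in hIAPP islets and 0.35 (adjusted p = 0.269) in wild-type islets. These effects did not differ past the threshold (difference 0.20, 95% interval −0.12 to 0.52, adjusted p = 0.514). The transgene difference without PBA was −0.15 (95% interval −0.38 to 0.08, adjusted p = 0.390), and under PBA it was 0.05. The Atf4 call in hIAPP islets was lost without any 1 of the 4 hIAPP arrays, at adjusted p between 0.0577 and 0.0902 with differences between 0.50 and 0.60. The other Atf4 probe set lay at 3.2 to 3.7 on all arrays, under the background limit.

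Ddit3 encodes CHOP, the factor that links long stress to cell death. Its levels were 8.8 and 8.8 in PBA-treated hIAPP islets, 8.6 and 8.4 in untreated hIAPP islets, 8.4 and 8.6 in PBA-treated wild-type islets, and 8.3 and 8.2 in untreated wild-type islets. The untreated hIAPP and PBA-treated wild-type arrays had the same 2 values, and the other groups lay above and below them. The transgene difference without PBA was 0.25 (SE 0.12, 95% interval −0.03 to 0.53, adjusted p = 0.248). With PBA, the difference from untreated islets was 0.30 in hIAPP mice (adjusted p = 0.185) and 0.25 in wild-type mice (adjusted p = 0.517). PBA-treated hIAPP islets stood 0.55 above untreated wild-type islets (95% interval 0.27 to 0.83, adjusted p = 0.145), the largest of the differences of Ddit3. No comparison of Ddit3 passed the threshold.

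Atf5 encodes a relative of ATF4 that is likewise controlled by translation and takes part in the mitochondrial stress response. It had 9.1 and 9.2 in PBA-treated hIAPP islets, 9.2 and 9.2 in untreated hIAPP islets, 9.2 and 9.2 in PBA-treated wild-type islets, and 9.0 and 9.1 in untreated wild-type islets. The groups overlapped or touched, apart from untreated hIAPP and PBA-treated wild-type islets over untreated wild-type islets. The transgene difference without PBA was 0.15 (95% interval −0.08 to 0.38, adjusted p = 0.390).

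Atf3 encodes a short-lived factor that represses or activates genes after many kinds of stress. It had 5.5 and 5.1 in PBA-treated hIAPP islets, 6.2 and 6.0 in untreated hIAPP islets, 4.6 and 4.6 in PBA-treated wild-type islets, and 5.5 and 5.0 in untreated wild-type islets. Untreated hIAPP islets were above every other group, PBA-treated wild-type islets were below every other group, and the remaining pair overlapped. Both PBA-treated wild-type arrays were under the background limit, so the level there is near background.

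Without PBA, Atf3 was higher by 0.85 in hIAPP than in wild-type islets (SE 0.20, 95% interval 0.39 to 1.31, adjusted p = 0.0353). Leaving out any 1 array ended that call, with differences of 0.60 to 1.10 and adjusted p of 0.0511 to 0.215. Under PBA the transgene difference was 0.70 (adjusted p = 0.240). With PBA, the difference was −0.80 in hIAPP islets, just outside the threshold (adjusted p = 0.0525), and −0.65 in wild-type islets (adjusted p = 0.311). The 2 PBA effects differed by −0.15 (95% interval −0.80 to 0.50, adjusted p = 0.827).

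Macrophage markers were, like Atf3, highest in untreated hIAPP islets and lowest in PBA-treated wild-type islets. The median of the 18 markers was 7.65 and 7.55 in PBA-treated hIAPP islets, 8.95 and 8.70 in untreated hIAPP islets, 6.10 and 6.05 in PBA-treated wild-type islets, and 6.70 and 6.55 in untreated wild-type islets. Summed over the list, the signal on the log2 scale was 12.6 to 12.7, 13.4 to 13.7, 11.4 to 11.5 and 11.8 to 11.9 in the same order of groups. Of the 18 markers, 16 rose with the transgene without PBA and 14 fell with PBA in hIAPP islets, as did 7.77% and 6.32% of all genes. In PBA-treated hIAPP against untreated wild-type islets 3 were called higher, at a list median of 0.55. Atf3 differed by 0.05 there, with overlap. Adgre1, a defining marker, was at or under the background limit on 1 of the 8 arrays. Their part in the Atf3 result was not tested. In such whole-islet samples, fewer cells of a type and less RNA per cell cannot be told apart.

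Among the feedback regulators, Trib3 encodes a pseudokinase that binds ATF4 and the kinase AKT. It had 5.8 and 5.8 in PBA-treated hIAPP islets, 6.1 and 5.6 in untreated hIAPP islets, 5.5 and 5.8 in PBA-treated wild-type islets, and 5.5 and 5.6 in untreated wild-type islets. The untreated hIAPP arrays differed from each other by more than any 2 group means did. The transgene difference was 0.30 without PBA (95% interval −0.12 to 0.72, adjusted p = 0.356), and no comparison passed.

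Ppp1r15a encodes GADD34, the subunit that directs a phosphatase to eIF2alpha and so ends the response. It had 7.8 and 7.7 in PBA-treated hIAPP islets, 7.8 and 7.9 in untreated hIAPP islets, 7.6 and 7.7 in PBA-treated wild-type islets, and 7.5 and 7.5 in untreated wild-type islets. Untreated wild-type islets were the lowest, with no overlap with any other group. The transgene difference of 0.35 without PBA missed the threshold (95% interval 0.12 to 0.58, adjusted p = 0.0695), and passed it when dim genes were left out before the fit (adjusted p = 0.0331).

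Among the metabolic targets, Asns encodes asparagine synthetase, a classic ATF4 target in amino acid shortage. It had 10.1 and 10.0 in PBA-treated hIAPP islets, 9.8 and 10.0 in untreated hIAPP islets, 10.2 and 10.2 in PBA-treated wild-type islets, and 10.1 and 10.0 in untreated wild-type islets. PBA-treated wild-type islets lay above the others, which touched or overlapped. The transgene difference was −0.15 both without PBA (adjusted p = 0.454) and under PBA (adjusted p = 0.607), each with a 95% interval of −0.41 to 0.11.

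Chac1 had 7.9 and 7.9 in PBA-treated hIAPP islets, 7.8 and 7.9 in untreated hIAPP islets, 8.1 and 8.1 in PBA-treated wild-type islets, and 8.2 and 8.3 in untreated wild-type islets. All 4 hIAPP arrays lay under all 4 wild-type arrays. The difference was −0.40 without PBA (SE 0.10, 95% interval −0.63 to −0.17, adjusted p = 0.0403) and −0.20 under PBA (adjusted p = 0.455). The call held without either PBA-treated wild-type array (adjusted p = 0.0423 each) and was lost without each of the other 6, with adjusted p of up to 0.160 and differences of −0.45 to −0.35. PBA gave a difference of 0.05 in hIAPP islets and −0.15 in wild-type islets (adjusted p = 0.824 and 0.617).

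Sesn2 and Ddit4 encode brakes on mTORC1: sestrin 2 is a leucine sensor, and DDIT4 (REDD1) acts through the TSC complex and also responds to lack of oxygen and to glucocorticoids. Sesn2 had 6.8 and 6.8 in PBA-treated hIAPP islets, 6.6 and 6.5 in untreated hIAPP islets, 6.7 and 6.6 in PBA-treated wild-type islets, and 6.3 and 6.6 in untreated wild-type islets. With this brighter probe set, PBA-treated hIAPP islets were above all other arrays, which overlapped or touched. With the other set they had 6.8 and 6.6 and overlapped both wild-type groups. The PBA difference in hIAPP islets was 0.25 with each of the 2 Sesn2 probe sets (adjusted p = 0.283 for the brighter). For the transgene without PBA the probe sets gave 0.10 and −0.05, so no direction holds for both.

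Ddit4 had 8.4 and 8.5 in PBA-treated hIAPP islets, 9.3 and 9.1 in untreated hIAPP islets, 8.8 and 8.8 in PBA-treated wild-type islets, and 8.3 and 8.3 in untreated wild-type islets. No 2 groups overlapped, and the order of levels was untreated hIAPP, PBA-treated wild type, PBA-treated hIAPP, untreated wild type. The last 2 of these differed by 0.15 (95% interval −0.10 to 0.40, adjusted p = 0.668). The transgene difference was 0.90 without PBA (SE 0.11, 95% interval 0.65 to 1.15, adjusted p = 0.00258), and it passed without each array in turn (0.80 to 1.00, adjusted p 0.0107 to 0.0359). Under PBA it was −0.35 (adjusted p = 0.280).

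The PBA difference of Ddit4 was −0.75 in hIAPP islets (95% interval −1.0 to −0.50, adjusted p = 0.0078). In wild-type islets it was 0.50 (95% interval 0.25 to 0.75, adjusted p = 0.163). The first call was lost without replicate 1 of untreated hIAPP islets (−0.65, adjusted p = 0.0638) or replicate 1 of PBA-treated hIAPP islets (−0.70, adjusted p = 0.0697). The difference between the 2 PBA effects was −1.25 (SE 0.15, 95% interval −1.60 to −0.90, adjusted p = 0.017). Without any 1 array it lay between −1.35 and −1.15 and no longer passed, with adjusted p of 0.0762 to 0.114.

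**Figure D3:**
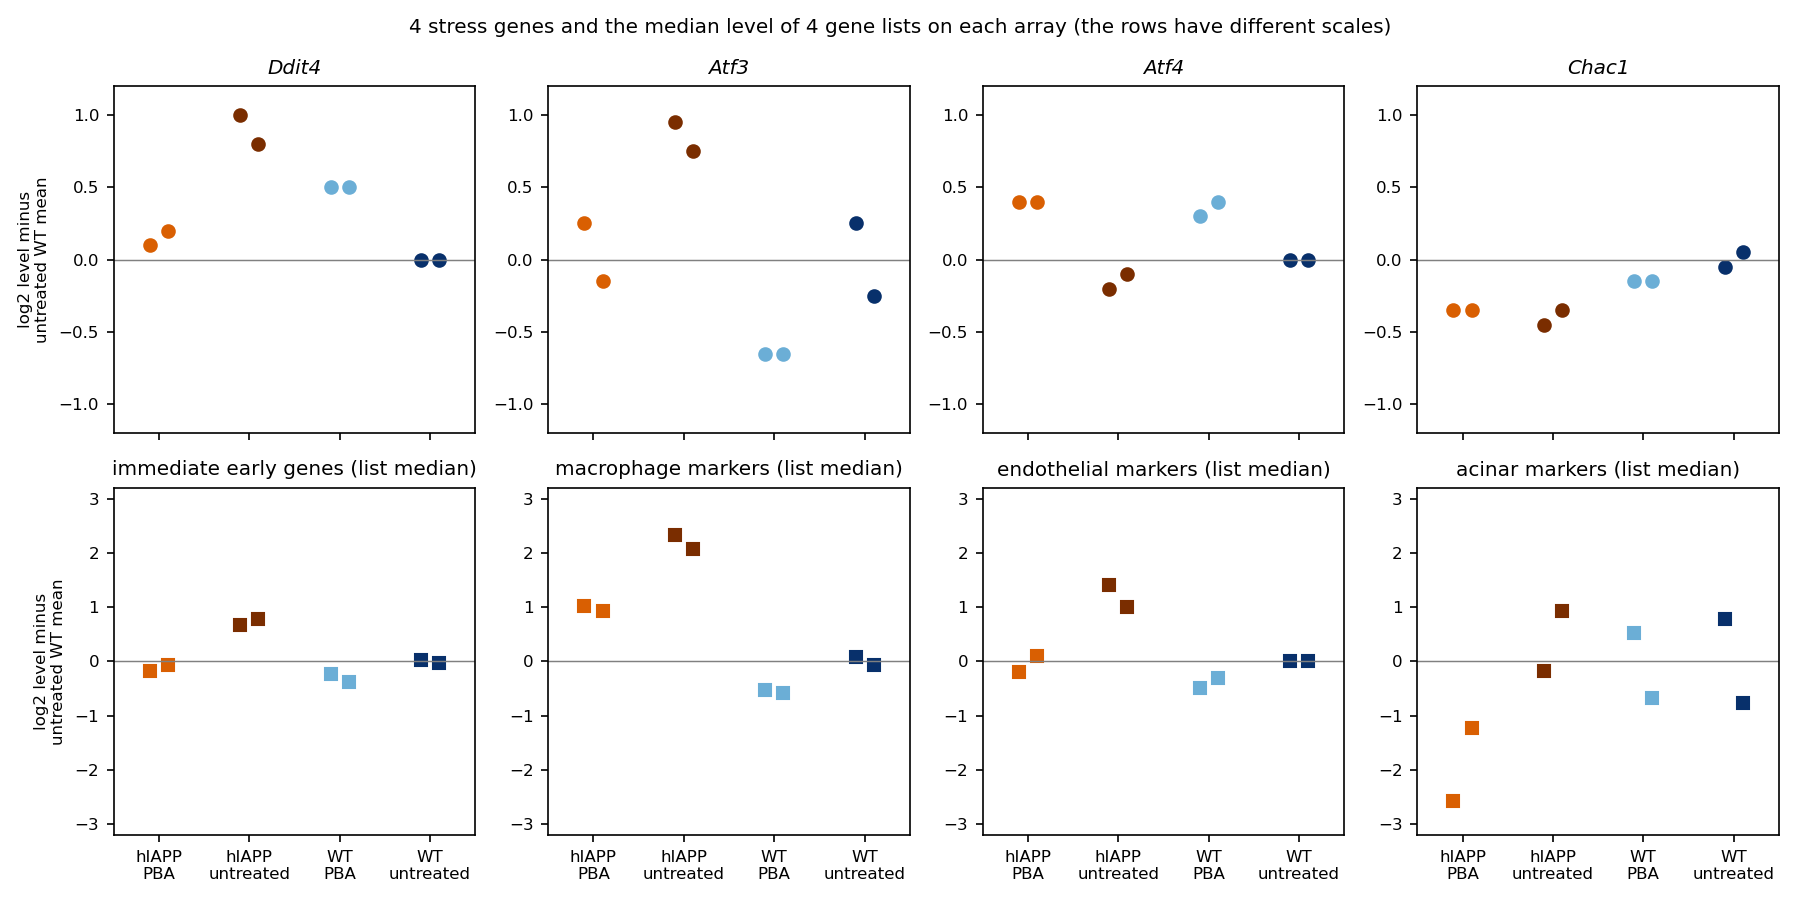
Levels of Ddit4, Atf3, Atf4 and Chac1 (top) and median levels of the immediate early, macrophage, endothelial and acinar gene lists (bottom) on every array, as log2 level minus the mean of the untreated wild-type (WT) arrays; the top and bottom rows have different scales. Ddit4, Atf3 and the immediate early, macrophage and endothelial lists are highest in untreated hIAPP islets, Atf4 is lowest there, and the acinar list is spread widely within the groups.

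Other gene lists also differed between the groups. Their counts are to be read beside the shares of all genes called higher and lower. These were 7.77% and 3.19% with the transgene without PBA, and 1.78% and 6.32% with PBA in hIAPP islets. The median of 16 immediate early genes, which respond within minutes to signals from outside the cell, was 7.55 and 7.65 in PBA-treated hIAPP islets, 8.40 and 8.50 in untreated hIAPP islets, 7.50 and 7.35 in PBA-treated wild-type islets, and 7.75 and 7.70 in untreated wild-type islets. The 13 endothelial markers had medians of 7.0 and 7.3, 8.60 and 8.20, 6.70 and 6.90, and 7.20 and 7.20 in that order of groups. Of these markers, 8 rose with the transgene without PBA and 9 fell with PBA in hIAPP islets. In wild-type islets the immediate early and endothelial medians of levels were lower with PBA, where Ddit4 and Atf4 were higher. The median of the differences per gene was only −0.15 and −0.05 there, and none of these genes passed. Single immediate early genes went either way in wild-type islets. Nr4a1 averaged 8.70 with PBA and 7.85 without it, and Junb 7.30 and 7.85. The 16 acinar markers, of the exocrine tissue around islets, had medians of 9.0 and 10.35 in PBA-treated hIAPP islets, 11.4 and 12.5 in untreated hIAPP islets, 12.1 and 10.9 in PBA-treated wild-type islets, and 12.35 and 10.8 in untreated wild-type islets. The acinar median was lower in PBA-treated than in untreated hIAPP islets, and among wild-type arrays it differed by over 1 unit within each group. With the acinar level as a covariate in the fit, the transgene call of Ddit4 was the 1 call of the 10 genes that passed. With that covariate, the calls for Atf4 and Ddit4 with PBA in hIAPP islets were lost at differences of 0.55 and −0.78 (adjusted p = 0.237 and 0.143). Those for Atf3 and Chac1 with the transgene were lost at 0.85 and −0.40 (adjusted p = 0.0643 and 0.0726), and that for the Ddit4 interaction at −1.28 (adjusted p = 0.123). The sizes were close to those without the covariate, and the standard errors were larger. Acinar medians of PBA-treated and untreated hIAPP arrays did not overlap. In that comparison the fit cannot tell acinar content and PBA apart.

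Of the stellate markers, 12 of 14 rose with the transgene and 11 fell with PBA in hIAPP islets. The 16 beta-cell markers had medians of 11.25 and 11.25 in PBA-treated hIAPP islets, 10.6 and 10.6 in untreated hIAPP islets, 11.15 and 11.25 in PBA-treated wild-type islets, and 11.2 and 11.15 in untreated wild-type islets. Of these, 5 fell with the transgene without PBA (list median −0.40) and 5 rose with PBA in hIAPP islets (0.425). The untreated hIAPP arrays were the lowest, as for Atf4. In wild-type islets the beta-cell medians of treated and untreated arrays overlapped, where Atf4 was 0.35 higher with PBA. Trpm5, a cation channel, had a transgene difference of −1.30, Sytl4, a protein of secretory granules, of −0.90, and Ucn3, a peptide hormone of mature beta cells, of −0.85. The 7 duct markers had medians of 4.1 and 7.0, 7.1 and 7.3, 4.8 and 5.3, and 4.7 and 5.7 in the same order of groups. Of these, 3 rose with the transgene (list median 1.25) and 3 fell with PBA in hIAPP islets (−1.0). On each array 2 to 4 of the 7 were at or under the background limit, Sox9 on all 8. Krt7 lay between 10.3 and 10.7 on all arrays. The part of cell types other than acinar cells in the calls of Ddit4, Atf4 and Chac1 was not tested. The acinar covariate does not settle the part of acinar cells.

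PBA-treated hIAPP islets were also set against untreated wild-type islets, which asks how far treated transgenic islets stood from the untreated baseline. None of the 10 genes passed, against 0.368% of all genes, and 5 had an unadjusted p under 0.05, as did 1876 of all 17097 genes. Arrays of 6 genes lay wholly above those of untreated wild-type islets and of 1 gene wholly below, where 15.3% and 16.0% of all genes did so. Among those above was Sesn2, which overlapped with its other probe set. The gene below was Chac1, at −0.35 (adjusted p = 0.221). In wild-type islets, PBA left 6 of the 10 genes wholly above untreated arrays and 2 wholly below, against 13.6% and 14.9% of all genes. Atf3 and Chac1 were the 2 below. The median PBA difference there was 0.15 over the 10 genes and 0 over all genes, and 3 of the 10 had an unadjusted p under 0.05, as did 1800 of all genes. Under PBA, the transgene comparison called none of the 10 genes, with 0.421% of all genes called, and 3 had an unadjusted p under 0.05, as did 2072 of all genes. Several of these comparisons share a group of arrays, so they are not separate evidence.

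The 10 genes did not rise and fall as 1 block over the 8 arrays. Of the 45 pairs, 25 had a positive and 20 a negative Pearson correlation, with a median of 0.07. The highest were 0.729 for Atf5 with Ddit4, 0.697 for Ddit3 with Sesn2 and 0.696 for Atf4 with Asns. The lowest was −0.881, for Chac1 with Ppp1r15a. The 8 arrays are 4 groups of 2, so these values describe mainly the group means.

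**Figure D4:**
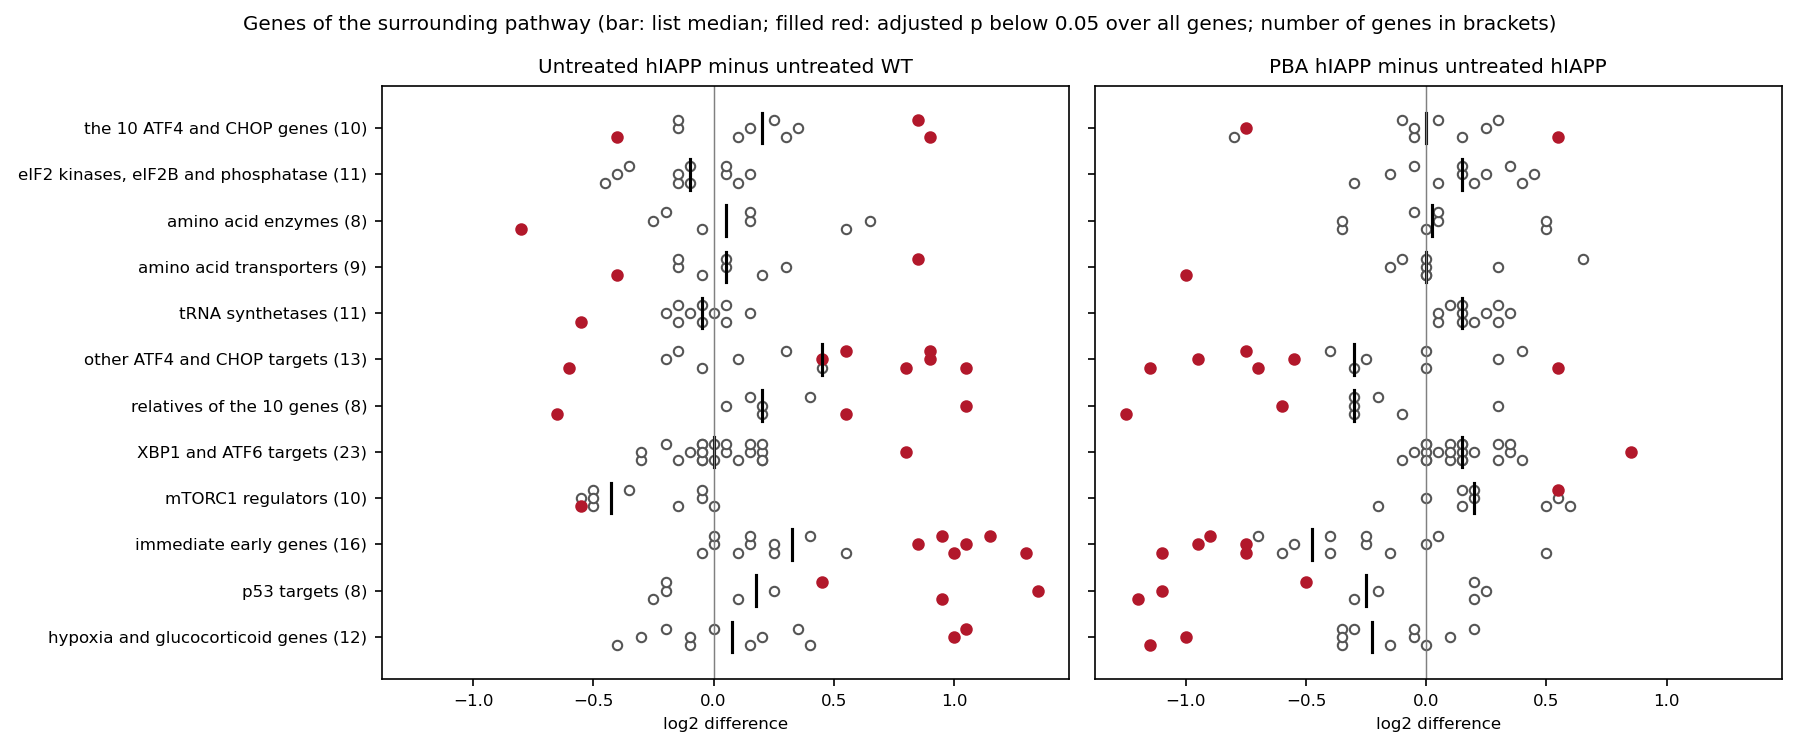
Log2 differences of the 10 genes and of 11 related gene lists (one point per gene, number of genes in brackets) for untreated hIAPP minus untreated wild type (left) and PBA-treated minus untreated hIAPP (right). Bars are list medians and filled red points passed the threshold over all genes. The kinases, eIF2B subunits and phosphatase of eIF2 have no filled point, while the other ATF4 and CHOP targets have 6 above 0 and 1 below on the left.

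Upstream of ATF4, none of 11 genes for eIF2alpha kinases, eIF2B subunits and the phosphatase passed with the transgene or with PBA in hIAPP islets, at median differences of −0.10 and 0.15. Downstream, 13 further targets of ATF4 or CHOP were measured. Without PBA, 6 of them rose and 1 fell with the transgene (median 0.45), and with PBA in hIAPP islets 1 rose and 5 fell (median −0.30). Among all genes 7.77% were called higher and 3.19% lower with the transgene, and 1.78% and 6.32% with PBA in hIAPP islets. The counts of the lists that follow are to be read beside these shares. Eif4ebp1, a repressor of cap-dependent translation, was 7.5 and 7.5 in PBA-treated hIAPP islets, 7.8 and 8.0 in untreated hIAPP islets, 7.4 and 7.4 in PBA-treated wild-type islets, and 7.1 and 7.1 in untreated wild-type islets. Its transgene difference was 0.80 (adjusted p = 0.0035).

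Stc2, a secreted glycoprotein induced by ER stress, was 4.5 and 4.5 in PBA-treated hIAPP islets, 5.6 and 5.3 in untreated hIAPP islets, 4.6 and 4.9 in PBA-treated wild-type islets, and 4.5 and 4.3 in untreated wild-type islets. It rose by 1.05 with the transgene and changed by −0.95 with PBA in hIAPP islets, and the PBA effects differed by −1.30 (adjusted p = 0.0364). All PBA-treated hIAPP and untreated wild-type arrays of Stc2 were under the background limit, so these sizes are uncertain. Pmaip1, which encodes the cell death protein NOXA, had differences of 0.90 and −1.15, and −1.40 between the PBA effects (adjusted p = 0.0216), but stayed under the background limit on all arrays. Bcl2l11, which encodes the cell death protein BIM, changed by −0.75 with PBA in hIAPP islets (adjusted p = 0.00599). The 1 target that went the other way, named after its values were seen, was Ero1a, an oxidase of the endoplasmic reticulum, at −0.60 with the transgene and 0.55 with PBA (adjusted p = 0.0124 and 0.0227).

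Of 8 relatives of the 10 genes, Jdp2 and Trib2 rose and Sesn3 fell with the transgene, and Jdp2 and Trib2 fell with PBA in hIAPP islets. Jdp2, a repressor related to ATF3, was 4.5 and 4.4 in PBA-treated hIAPP islets, 5.7 and 5.7 in untreated hIAPP islets, 4.6 and 4.6 in PBA-treated wild-type islets, and 4.7 and 4.6 in untreated wild-type islets. Only the untreated hIAPP arrays of Jdp2 exceeded the background limit by more than 0.1. Trib2, a pseudokinase related to TRIB3, was 6.5 and 6.3, 7.0 and 7.0, 7.1 and 7.1, and 6.5 and 6.4 in that order of groups. PBA effects on Trib2 differed by −1.25 and those on Jdp2 by −1.2 (adjusted p = 0.0169 and 0.0155). Sesn3, a relative of Sesn2, was lower by a difference of −0.65 with the transgene (adjusted p = 0.00999).

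In the amino acid arm, of 8 enzymes, Cbs, which turns homocysteine to cystathionine, fell with the transgene (−0.80, adjusted p = 0.0117), and none passed with PBA in hIAPP islets. Of 9 transporters, Slc1a5, a glutamine carrier, rose with the transgene (0.85) and fell with PBA (−1.0), while Slc7a5, a leucine carrier, fell with the transgene (−0.40, adjusted p = 0.0448). Apart from untreated hIAPP islets and 1 untreated wild-type array, Slc1a5 was under the background limit, so the sizes of its differences are uncertain. Of 11 tRNA synthetases, Wars fell with the transgene (−0.55, adjusted p = 0.0291) and none passed with PBA.

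In the other branches of the ER stress response, 1 of 23 targets of XBP1 or ATF6 rose with the transgene and 1 with PBA in hIAPP islets. Of all genes, 7.77% and 1.78% were called higher in these comparisons, and the list medians were 0 and 0.15. The 2 targets were Derl3 (0.80, adjusted p = 0.0204), which helps export misfolded protein for degradation, and Syvn1 (0.85, adjusted p = 0.0133), a ubiquitin ligase of the same route. Derl3 averaged 7.90 in untreated wild-type islets, 8.65 in PBA-treated wild-type islets, 8.70 in untreated hIAPP islets and 8.85 in PBA-treated hIAPP islets. Of 10 regulators of mTORC1, the pathway that Ddit4 and Sesn2 restrain, Mtor itself was lower with the transgene (−0.55, adjusted p = 0.0403) and higher with PBA in hIAPP islets (0.55, adjusted p = 0.0489). The medians of that list were −0.425 and 0.20. PBA in wild-type islets called none of the genes in these lists.

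Genes with the most similar pattern were sought among 3139 genes that were above background and spanned at least 0.5 between group means. Closest to Atf4 over the 8 arrays were Rsrp1 (Pearson r 0.983), Camk2n2 and Tmem41b (0.978 each), Irgq (0.967) and Mrps12 (0.960). Closest to Ddit3 were Npr2 (0.912), Cabcoco1 (0.911), Gm15706 (0.908), Spc25 (0.902) and Cish (0.899). Atf3, the gene of the 10 with the widest range of group means (1.5), was most like Cd52 (0.994), Ly86 (0.988), Cd53 (0.987), Septin8 and Mef2a (0.986 each). Cd52, a surface protein of leukocytes, averaged 7.90 in PBA-treated hIAPP islets, 9.40 in untreated hIAPP islets, 6.60 in PBA-treated wild-type islets and 7.95 in untreated wild-type islets. These correlations were picked as the highest of many over arrays that share groups, and describe likeness only.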

How the data were processed

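Total RNA of isolated islets was hybridised to Affymetrix arrays, 2 per group. The deposited table holds log2 values that the authors made with RMA (background correction, quantile normalisation and probe summary), with the affy package named without a version, per the submitters' processing notes. They carry 1 decimal and were taken without change. Of 45141 probe sets, 104 were controls, 28898 had 1 gene symbol in the platform annotation, 551 several and 15588 none. The last 2 kinds were left out, and the brightest probe set stood for each of 17097 genes.

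Group means over all 8 arrays were fitted with limma 3.58.1 (lmFit, eBayes) in R 4.3.3, and the fit was checked on simulated data. There, 50 genes were changed at each size in untreated hIAPP arrays. For the transgene without PBA, 10% of log2 changes of 0.5, 66% of changes of 1 and 88% of changes of 2 were called. A small difference that did not pass is therefore not shown to be absent. Benjamini-Hochberg adjustment ran over all genes. The number of arrays and the rounding limit the precision, with 4 residual degrees of freedom. Other filters, normalisations, covariates, blocks and sets of arrays were tried.

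The genes and gene lists were chosen with earlier results of these data known. Every one of the 10 genes is named, and for each list up to 3 genes with the smallest p-values among those past the threshold. The 5 genes most like Atf4, Ddit3 and the widest-ranging gene are also named. Not analysed here: Mafa, Iapp and Ins1.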

Additional observations from a re-analysis of the deposited data

Results flagged for a closer look

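The effect of PBA on Ddit4 differed between hIAPP and wild-type islets, by −1.25 on the log2 scale (SE 0.15, adjusted p = 0.017, limma with Benjamini-Hochberg adjustment over all genes). The PBA difference was −0.75 in hIAPP islets and 0.50 in wild-type islets, where it did not pass the threshold (adjusted p = 0.163). With the acinar level as a covariate, the 2 PBA effects differed by −1.28, which did not pass (adjusted p = 0.123). Without any 1 array they differed by −1.35 to −1.15, and the call was lost, as given above. Both PBA-treated hIAPP arrays were below both untreated hIAPP arrays, and both PBA-treated wild-type arrays were above both untreated wild-type arrays.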

How the results depend on the processing

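With 2 arrays per group and values rounded to 1 decimal, small differences could not be measured. Calls over all genes changed with the setting. For the transgene they were 1874 in the main fit, 484 with only the compared groups, 4347 after centring and 1547 with the acinar covariate. For PBA in hIAPP islets they were 1384, 14, 3499 and 81 in the same order. Counts for the 10 genes are to be read beside these. Of the 10 genes, 3 were called with the transgene, and this was 0 with only the compared groups fitted, 1 with the acinar covariate, 0 without both PBA-treated replicates 1, and 1 to 2 without any 1 array. With PBA in hIAPP islets 2 were called, against 0 with the compared groups, 4 after centring, 0 with the acinar covariate, 0 without both PBA-treated replicates 1, and 0 to 2 without 1 array. The interaction call became 0 with the acinar covariate (Ddit4 at −1.28, against −1.25), 0 without both replicates and 0 without any 1 array. With a variance trend and robust fit, 2 genes were called in place of 0 for PBA in wild-type islets (Atf4 and Ddit4) and 2 in place of 0 for PBA-treated hIAPP against untreated wild-type islets (Atf4 and Ddit3). Centring called Atf4 lower with the transgene (−0.35, adjusted p = 0.0376) and Ddit3 and Sesn2 higher with PBA in hIAPP islets (0.50 and 0.45). Atf3 passed with PBA in hIAPP islets under the replicate block (adjusted p = 0.0381), the dim filter, the robust fit and the mean of probe sets. The cause of these changes was not tested.

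Whether the replicate numbers pair the arrays is not given. Deviations of replicate 1 from the group means correlated between groups at −0.14 to 0.098, which does not settle it. With the number as a replicate block, Chac1 missed the threshold (adjusted p = 0.0565), and the genes called were 1486 with the transgene, 1027 with PBA in hIAPP islets and 118 in the interaction.

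Over all genes, the transgene called 1329 higher and 545 lower, but 1083 and 3264 after centring, and PBA in hIAPP islets 304 and 1080, but 2611 and 888. With only the compared groups fitted these totals were 484 and 14, and without any 1 array they were 568 to 1579 and 166 to 968. The robust fit called 2295 genes and the acinar covariate 81 for PBA in hIAPP islets. For PBA in wild-type islets the main 50 calls became 299 with the robust fit, 87 with the dim filter, 5 with the block and 0 to 2 without 1 array. For the transgene under PBA, 72 became 348 with the robust fit, 15 with the block, 4 with the acinar covariate and 5 to 13 without 1 array. For PBA-treated hIAPP against untreated wild type, 63 became 367, 30, 2 and 2 to 16 in the same order. In the interaction, 335 became 1059, 118, 4 and 0 to 3. With only the compared groups, limma called 0 genes in the 3 smaller comparisons, where 1802, 1902 and 2440 had an unadjusted p under 0.05. Without both PBA-treated replicates 1, the transgene called 484, PBA in hIAPP islets 0 (3361 with an unadjusted p under 0.05), PBA in wild-type islets 0 (1649), the interaction 0 (2555) and the other comparisons 1 each.

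Some small differences, none of them called, changed sign. After centring these were Atf5 (−0.05) and Sesn2 (−0.10) with the transgene, Trib3 (0.15), Atf5 (0.15) and Ppp1r15a (0.10) with PBA in hIAPP islets, and Trib3 (0.05) and Atf3 (0.05) in the interaction. With the acinar covariate they were Trib3 under PBA (−0.13) and against untreated wild type (−0.0443), and Ddit3 (−0.0476) and Sesn2 (−0.10) in the interaction. Without both PBA-treated replicates 1 they were Atf3 against untreated wild type (−0.15) and Ddit3 in the interaction (−0.05). Without 1 array, the ranges that crossed 0 were −0.05 to 0.25 for Sesn2 with the transgene, −0.30 to 0.20 and −0.05 to 0.25 for Trib3 with PBA in hIAPP and in wild-type islets, and −0.20 to 0.30 for Atf3 against untreated wild type. In the interaction they were −0.40 to 0.10 for Atf3, −0.05 to 0.15 for Ddit3, −0.10 to 0.20 for Sesn2 and −0.40 to 0.10 for Trib3.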

Other observations

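Some lists that share regulators with Ddit4 and Atf3 had calls in both comparisons of untreated hIAPP islets. Of 16 immediate early genes, 6 rose and none fell with the transgene without PBA, at a median of 0.325. With PBA in hIAPP islets, 5 fell and none rose, at a median of −0.475. Of all genes, 7.77% were called higher with the transgene and 6.32% lower with PBA in hIAPP islets. Among those that rose with the transgene were Nr4a1 (0.95), an orphan nuclear receptor, Klf4 (1.05), a zinc finger factor, and Fosl2 (1.15), a subunit of AP-1. Among those that fell with PBA were Ier3 (−1.10), Dusp1 (−0.75), a phosphatase of MAP kinases, and Junb (−0.95), another AP-1 subunit. The PBA effects on Nr4a1 and Klf4 differed between the genotypes by −1.25 each (adjusted p = 0.0216 and 0.0288).

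Of 8 p53 targets, 3 rose with the transgene and the same 3 genes fell with PBA in hIAPP islets. Cdkn1a, an inhibitor of the cell cycle, had 6.9 and 6.8 in PBA-treated hIAPP islets, 8.0 and 8.1 in untreated hIAPP islets, 6.9 and 7.0 in PBA-treated wild-type islets, and 7.2 and 7.0 in untreated wild-type islets. Its differences were 0.95 with the transgene and −1.2 with PBA, and −1.05 between the PBA effects (adjusted p = 0.0287). Phlda3 had differences of 1.35 and −1.10, and Trp53inp1 of 0.45 and −0.50. Of 12 genes that respond to lack of oxygen or to glucocorticoids, 10 passed in neither comparison, and the list medians were 0.075 and −0.225. The 2 that passed in both were Adm, a vasodilator peptide, and Tsc22d3, a glucocorticoid target. With the transgene Adm rose by 1.05 and Tsc22d3 by 1.00, and their PBA differences were −1.15 and −1.0. Among all genes 7.77% were called higher with the transgene and 6.32% lower with PBA in hIAPP islets. Adm was under the background limit on all arrays other than those of untreated hIAPP islets, so the sizes of its differences are uncertain. Untreated hIAPP arrays are part of both comparisons, so the opposite signs are not separate evidence.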
